A study of Homo sapiens with 6 samples.

Results

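The BCL2 family genes BCL2, BCL2L1, MCL1, BAX, BAK1, BID, BAD, BIK, BCL2L11 and PMAIP1 were examined in HMGA1 knockdown and control cells, as the rows of the deposited expression table that carry these 10 gene names. All 10 were found among the 31164 genes of the table, and all 10 reached the mean of 1 FPKM above which genes were tested, BCL2 only just (mean 1 FPKM over the 6 libraries). The tested cells (shHMGA1, 3 libraries) carried a stable hairpin RNA against HMGA1 and are labelled as HMGA1 knockdown. Their controls (shNC, 3 libraries) carried a control hairpin and are labelled wild type. Both groups are labelled HT29, an established line of human colorectal cancer cells, received no treatment, and were grown in serum-supplemented DMEM. The sources used here do not give the number of hairpins or whether the lines were clones or pools.

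Proteins of this family decide whether the outer mitochondrial membrane stays intact. BAX and BAK1 assemble into pores that release cytochrome c, which starts the caspase cascade. BCL2, BCL-xL (from BCL2L1) and MCL1 hold them back, and the BH3-only proteins (here BID, BAD, BIK, BIM from BCL2L11, and NOXA from PMAIP1) either bind and neutralise these guards or engage the pore formers directly. In colorectal cancer BCL-xL and MCL1 are known as the guards on which tumour cells lean. HMGA1 is a chromatin protein with AT-hooks that bind AT-rich DNA. Values here are RNA levels in FPKM, a fragment count scaled to transcript length and to the mapped fragments of the library, and say nothing of protein amount, cleavage or phosphorylation, by which much of this family is controlled. They are summed over a gene's transcripts, so that the long and the short BCL2L1 forms, which have opposite roles, cannot be told apart.

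HMGA1 itself stood at 465.29, 565.19 and 507.95 FPKM in the shHMGA1 libraries, against 785.21, 809.56 and 854.4 FPKM in the shNC libraries (log2 fold change -0.67, SE 0.08, adjusted p = 0.0018), so the knockdown left 62.8% of the control level. Libraries correlated at 0.9803 to 0.9878 within groups and at 0.9726 to 0.9773 between groups, and low values put the relative depth of the libraries at 0.73 to 1 times that of shNC replicate 1. The colon label was checked against 14 epithelial and colon markers. KRT8, KRT18, KRT19, EPCAM, CDH1 and CDX2 were present and KRT20 lay near 1 FPKM, whereas CDH17, CDX1, CEACAM5, CEACAM6, GPA33, LGALS4 and VIL1 lay below 0.5 FPKM in every library (highest value 0.22). These 7 defining colon markers were thus at or near 0 in cells labelled HT29, in both groups alike. The summed level of the 14 markers was 3128 to 3321 FPKM in shHMGA1 and 3478 to 3827 FPKM in shNC. Most of this sum is KRT8, KRT18 and KRT19, each lower in every shHMGA1 library. EPCAM went the other way, at 233.56, 250.16 and 271.77 FPKM in shHMGA1 against 194.23, 198.64 and 198.62 FPKM in shNC. Of the 7 markers with a mean of at least 1 FPKM, 1 was called higher and 2 lower, where 28.4% of all genes tested were called. The part of these marker differences in the results was not tested. Markers of blood cells summed to at most 0.51 FPKM in shHMGA1 and 0.72 FPKM in shNC, and of 5 fibroblast markers in the table only COL1A1 exceeded 1 FPKM. COL1A1 had 11.13, 6.67 and 9.4 FPKM in shHMGA1, against 11.08, 11.35 and 10.58 FPKM in shNC. Nothing in the labels places the replicates in separate cultures, so p-values speak of the spread among these libraries, which may be technical.

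BCL2L1 and BAX fell and BAD rose in the knockdown, while the other 7 genes did not pass the test. By limma on log2(FPKM + 1), with an adjusted p under 0.05 over all genes, 2 of 10 members were called lower and 1 of 10 higher. Of all 14304 genes tested, 12.3% were called lower and 16.1% higher, 28.4% in all, so that 3 of 10 is close to the share of genes in general. In bulk RNA a lower level in every cell and fewer cells with the transcript cannot be told apart. The median log2 fold change of the 10 genes was -0.09, against 0.02 for all genes tested. In 7 of the 10 genes the 3 shHMGA1 values did not overlap the 3 shNC values, 4 of them lower and 3 higher. Over all genes tested 45.9% were apart in this way, 20.5% lower and 25.4% higher. For each of these 7 genes the two-sided exact permutation p over the 6 libraries was 0.1, and groups of 3 cannot give a smaller one. Leaving out a library changed these totals: 1173 genes were called higher and 1055 lower when shHMGA1 replicate 3 was dropped, 1138 higher and 1001 lower when shNC replicate 1 was, and 1279 higher and 952 lower when shNC replicate 2 was.

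**Figure D1:**
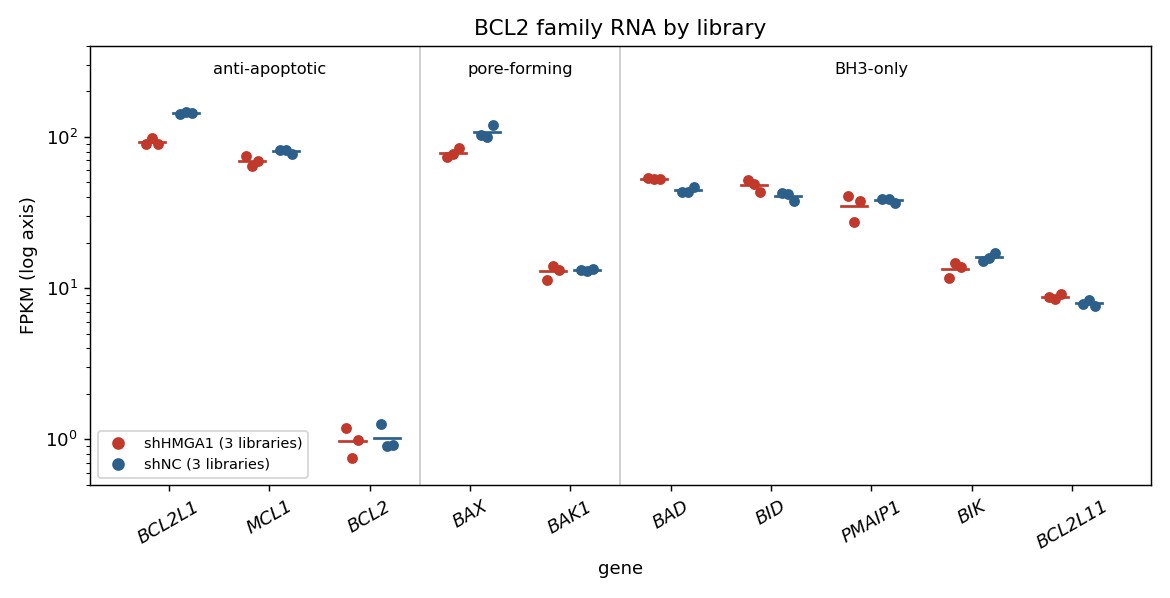
FPKM of the 10 BCL2 family genes in each library, on a log axis, with shHMGA1 in red and shNC in blue; horizontal lines are group means of 3 libraries. BCL2L1 and BAX lie lower in all 3 shHMGA1 libraries, BAD lies higher, and BCL2 is near 1 FPKM in both groups.

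Among the guards, BCL2L1 showed the largest difference of the 10 members. It had 89.39, 98.52 and 90.49 FPKM in the shHMGA1 libraries, against 141.46, 146.35 and 143.66 FPKM in the shNC libraries. All 3 knockdown libraries lay far below the lowest control, and the spread within each group was small (92.8 ± 4.98 FPKM in shHMGA1 and 144 ± 2.45 FPKM in shNC, SD, n = 3 each). The log2 fold change was -0.63 (SE 0.05, 95% confidence interval -0.75 to -0.51, adjusted p = 0.000838), which left 64.5% of the control level. Its moderated t was the 60th lowest of the 14304 genes. With any 1 library left out the log2 fold change stayed within -0.67 to -0.60 and the gene stayed called.

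BCL2L1 (ENSG00000171552.13) lies on the minus strand of chromosome 20, at chr20:31664452-31723989 in hg38. In GENCODE 29 its exons share 1424 bases with those of ABALON, a long noncoding RNA on the opposite strand. ABALON, named after its values were seen, had 3.34, 3.44 and 3.67 FPKM in shHMGA1, against 10.24, 9.01 and 9.57 FPKM in shNC (log2 fold change -1.24, adjusted p = 0.000307). The sources used here do not state whether counting used strand, so reads of the pair may not be separable. The authors' deposited table also gives a group level, a signal scaled like normalized counts. There ABALON had a level of 162 in shHMGA1 and 452 in shNC, while BCL2L1 had 4344 in shHMGA1 and 7065 in shNC. How many reads of the shared bases were assigned to either gene was not tested.

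The promoters of the called members are shown because HMGA1 binds AT-rich DNA and because 2 of the called genes fell while the third rose. RefSeq (GRCh38.p14) gave promoter windows for 8 of the 10 members, and the 250 bases before each start are printed 5′ to 3′ along the gene. Capitals mark matches on either strand to GGGCGG (the GC box, in 42.6% of all 35116 such windows), CCAAT (in 32%), TATAAA (the TATA box, in 10.7%), CACGTG (the E-box, in 6.34%), TTCNNNGAA (a STAT-type motif, in 6.57%), TGANTCA (an AP-1-type motif, in 6.57%) or TGACGTCA (a CRE, in 1.65%). CCAAT on the other strand reads ATTGG, and no match overlapped another in the 4 windows shown. The first 2 sequences are the upstream start (chr20:31723964-31724213, minus strand) and the downstream start (chr20:31722869-31723118, minus strand) of BCL2L1, the guard that fell. The third is BAX (chr19:48954625-48954874, plus strand), the pore former that fell. The fourth is the start of BAD farther upstream (chr11:64284705-64284954, minus strand), the BH3-only gene that rose.
BCL2L1 upstream start: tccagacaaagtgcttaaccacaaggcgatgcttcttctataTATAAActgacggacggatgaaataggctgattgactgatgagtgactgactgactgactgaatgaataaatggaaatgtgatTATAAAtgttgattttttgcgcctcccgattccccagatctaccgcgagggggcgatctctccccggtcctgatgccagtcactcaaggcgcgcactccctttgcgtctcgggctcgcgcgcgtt
BCL2L1 downstream start: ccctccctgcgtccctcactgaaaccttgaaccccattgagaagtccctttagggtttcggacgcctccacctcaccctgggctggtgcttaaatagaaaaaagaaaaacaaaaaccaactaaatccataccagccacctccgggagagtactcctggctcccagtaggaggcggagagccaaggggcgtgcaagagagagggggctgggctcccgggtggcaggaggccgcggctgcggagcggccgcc
BAX: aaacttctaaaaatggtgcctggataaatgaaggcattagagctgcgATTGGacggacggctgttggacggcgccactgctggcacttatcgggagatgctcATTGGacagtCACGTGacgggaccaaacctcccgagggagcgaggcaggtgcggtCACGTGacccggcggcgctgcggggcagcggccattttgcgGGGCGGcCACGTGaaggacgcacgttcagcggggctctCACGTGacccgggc
BAD: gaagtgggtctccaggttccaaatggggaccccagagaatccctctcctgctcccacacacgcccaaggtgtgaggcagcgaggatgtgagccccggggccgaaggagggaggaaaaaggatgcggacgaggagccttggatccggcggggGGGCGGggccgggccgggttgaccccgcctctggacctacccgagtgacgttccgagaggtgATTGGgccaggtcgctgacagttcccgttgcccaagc

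In these windows the share of A and T was 50% and 39.6% at the BCL2L1 starts, 37.2% for BAX and 33.6% for BAD, against a median of 42% over all windows. The longest run of A and T alone was 10 bases at the upstream BCL2L1 start and 7 at the downstream one, 7 for BAX and 5 for BAD (median of all windows 6). Only the upstream BCL2L1 start exceeded the median in A and T content among these 4 windows. It holds TATAAA in 2 places and no other motif searched, and the downstream start holds none. The BAX window holds CACGTG in 4 places, CCAAT in 2 and GGGCGG in 1, and the BAD window CCAAT and GGGCGG in 1 place each. A match is a match of letters, and no binding was measured here. Over all 14 windows of the 8 members A and T made up 22% to 52.4%. The highest share belonged to a window of BID (chr22:17774666-17774915), with a longest run of 11 bases. The start of that window was not found in a GENCODE 29 transcript of BID, and the other BID windows had 22% to 31.2%. The BCL2 window also had a run of 11. Neither gene was called by FPKM, but the authors' deposited table called BID (adjusted p = 0.000711), and BCL2 lay at the minimum for testing. Whether A and T content bears on the differences was not tested.

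MCL1, a short-lived guard that is replaced quickly, was the second guard by FPKM. It had 75.33, 64.21 and 69.8 FPKM in shHMGA1, against 82.23, 82.44 and 77.47 FPKM in shNC. The groups did not overlap, with shHMGA1 replicate 2 lowest and replicate 1 closest to the controls. The log2 fold change of -0.21 (SE 0.07, 95% confidence interval -0.37 to -0.05) missed the threshold (adjusted p = 0.0527). Without shHMGA1 replicate 1 it was -0.27 (adjusted p = 0.0179) and MCL1 was called, and the other fits with 1 library left out gave an adjusted p of up to 0.149. MCL1 (ENSG00000143384.13) lies at chr1:150574551-150579738. BCL2, the founding guard of the family, was close to the limit of testing. It had 1.19, 0.75 and 0.99 FPKM in shHMGA1, against 1.27, 0.9 and 0.91 FPKM in shNC. The groups overlapped, and the interval of its log2 fold change (-0.04) ran widely, at -0.38 to 0.31 (adjusted p = 0.87). Its sign turned without shHMGA1 replicate 2 (0.05).

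BAX was the pore former with the higher FPKM, and it fell. It had 73.16, 76.94 and 83.97 FPKM in shHMGA1, against 103.5, 99.78 and 119.36 FPKM in shNC. Every knockdown library lay below every control library, with shNC replicate 3 standing highest. The log2 fold change was -0.46 (SE 0.08, 95% confidence interval -0.65 to -0.26, adjusted p = 0.00824), which left 72.5% of the control level, and with 1 library left out it stayed within -0.51 to -0.38 with an adjusted p of at most 0.0275. BAX (ENSG00000087088.20) lies on the plus strand at chr19:48954815-48961798, and its exons share no bases with the exons of another gene in GENCODE 29. BAK1, the second pore former, had 11.37, 14.03 and 13.26 FPKM in shHMGA1, against 13.25, 12.92 and 13.44 FPKM in shNC. The groups overlapped, since shHMGA1 replicate 1 was the lowest of the 6 and replicate 2 the highest (log2 fold change -0.04, interval -0.23 to 0.15, adjusted p = 0.759). The sign of BAK1 turned without shHMGA1 replicate 1 (0.04). BAK1 lies on chromosome 6 at a gap of 0.657 megabases from HMGA1. The ratio of BAX to BAK1 in FPKM was 6.43, 5.48 and 6.33 in shHMGA1, against 7.81, 7.72 and 8.88 in shNC.

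Of the 5 BH3-only genes, BAD rose. BAD, which binds BCL2 and BCL-xL and is held inactive by phosphorylation, had 53.62, 52.39 and 52.5 FPKM in shHMGA1, against 43.42, 43.21 and 46.37 FPKM in shNC. The groups did not overlap, and the 3 knockdown values were almost equal. Its log2 fold change was 0.25 (SE 0.05, 95% confidence interval 0.14 to 0.36, adjusted p = 0.0105), or 119% of the control level. It stayed called with any 1 library left out, at an adjusted p of up to 0.0486. BAD (ENSG00000002330.13) lies at chr11:64269830-64284704 and shares 404 exon bases with GPR137 on the opposite strand. GPR137, named after its values were seen, had 7.89 ± 1.22 FPKM in shHMGA1 and 7.84 ± 1.6 FPKM in shNC (log2 fold change 0.01, adjusted p = 0.952).

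BID, which carries death receptor signals to mitochondria once caspases cut it, had 52.17, 48.86 and 43.04 FPKM in shHMGA1, against 42.46, 42.09 and 37.49 FPKM in shNC. The knockdown libraries all lay above the controls, but by little, since shHMGA1 replicate 3 came within 1 FPKM of shNC replicate 1. The log2 fold change of 0.23 (interval 0.03 to 0.43) did not pass (adjusted p = 0.0774). Without shHMGA1 replicate 3 it was 0.31 and passed (adjusted p = 0.0456). BIK, an inducer of apoptosis that sits largely at the endoplasmic reticulum, had 11.58, 14.6 and 13.7 FPKM in shHMGA1, against 15.05, 15.74 and 17.05 FPKM in shNC. All its knockdown values lay below the controls, the nearest by less than 1 FPKM (log2 fold change -0.25, interval -0.47 to -0.03, adjusted p = 0.0827). Without shHMGA1 replicate 1, the lowest of the 6, it was -0.16 (adjusted p = 0.134), and the other fits with 1 library left out gave -0.32 to -0.20. BID and BIK both lie on chromosome 22.

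BCL2L11, which encodes BIM, a binder of every guard, had 8.79, 8.42 and 9.1 FPKM in shHMGA1, against 7.91, 8.35 and 7.58 FPKM in shNC. The groups were apart by a narrow margin between shHMGA1 replicate 2 and shNC replicate 2 (log2 fold change 0.13, interval -0.03 to 0.28, adjusted p = 0.185). Its exons share 727 bases with MIR4435-2HG on the opposite strand, which had 17.9 ± 2.12 FPKM in shHMGA1 and 27.6 ± 0.55 FPKM in shNC (log2 fold change -0.60, adjusted p = 0.00376, named after its values were seen), so their reads may be mixed. PMAIP1, whose product NOXA binds MCL1 above all, had 40.71, 27.17 and 37.58 FPKM in shHMGA1, against 38.86, 39.13 and 36.67 FPKM in shNC. A single library, shHMGA1 replicate 2, was low, and the other knockdown libraries lay within or above the control range. The log2 fold change of PMAIP1 was -0.14 (interval -0.46 to 0.19, adjusted p = 0.485), and without shHMGA1 replicate 2 it was 0.03. The same library was also the lowest of the 6 for MCL1.

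**Figure D2:**
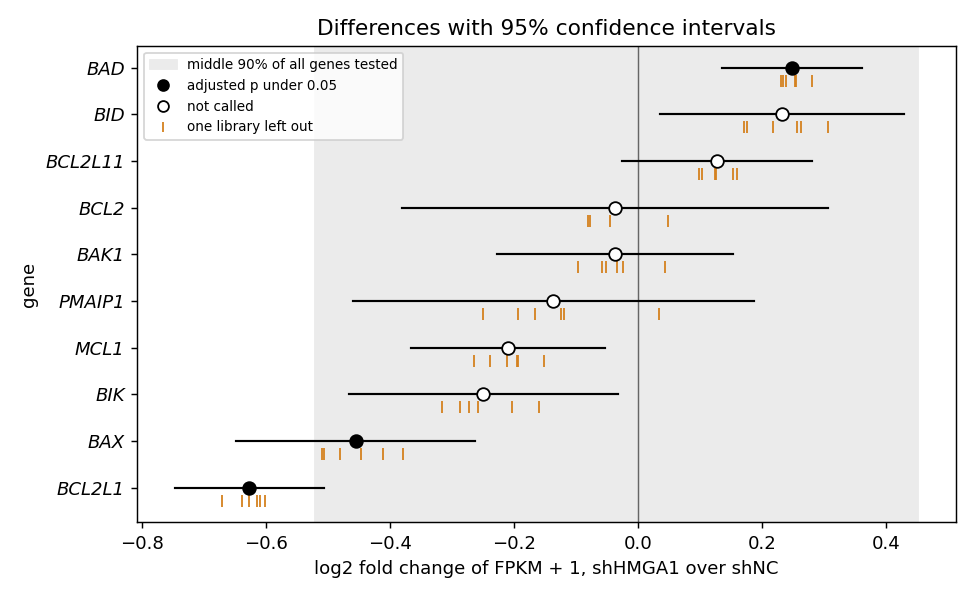
Log2 fold change of FPKM + 1, shHMGA1 over shNC, for the 10 genes, with 95% confidence intervals (black lines), values with 1 library left out (orange ticks) and the middle 90% of all genes tested (grey, -0.52 to 0.45). Filled points passed an adjusted p under 0.05, and only BCL2L1 lies outside the grey band.

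By FPKM, the order of the 10 genes was the same in both groups: BCL2L1, BAX, MCL1, BAD, BID, PMAIP1, BIK, BAK1, BCL2L11 and BCL2. FPKM is scaled to length, but the lengths used are not stated, and the order between genes rests on them. The authors' level per FPKM in shHMGA1 was 14.8 for BAX and 54.3 for BAK1, although their exons cover 2587 and 2212 bases. In the authors' group level, a signal scaled like normalized counts, MCL1 (6814 in shHMGA1, 7761 in shNC) stood above BCL2L1 (4344 and 7065). BAX had 1156 in shHMGA1 and 1525 in shNC there, against 700 and 725 for BAK1. If that level holds counts, it is not scaled to length, and its order between genes is not an order of expression. In shHMGA1 the ranges of BAX (73.2 to 84) and MCL1 (64.2 to 75.3) overlapped, and so did those of BIK and BAK1. In shNC only BID (37.5 to 42.5) and PMAIP1 (36.7 to 39.1) overlapped, and every other neighbour in the order stood apart. In FPKM BCL2L1 held the first place in both groups, and MCL1 stood closer to it in the knockdown. MCL1 reached 0.843, 0.652 and 0.771 times the BCL2L1 FPKM in shHMGA1, against 0.581, 0.563 and 0.539 times in shNC.

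The summed level of the 3 guards was 166, 163 and 161 FPKM in shHMGA1, against 225, 230 and 222 FPKM in shNC. That of the pore formers BAX and BAK1 was 84.5, 91 and 97.2 FPKM in shHMGA1, against 117, 113 and 133 FPKM in shNC. The groups were apart in both sums, lower in the knockdown. The 5 BH3-only genes summed to 167, 151 and 156 FPKM in shHMGA1, against 148, 149 and 145 FPKM in shNC, a narrow separation in the other direction. As shares of the total of the 10 genes, the guards made up 39.7 ± 0.687% in shHMGA1 and 45.7 ± 1.21% in shNC, and the BH3-only genes 38.3 ± 1.46% in shHMGA1 and 29.8 ± 0.685% in shNC (SD, n = 3 each). The ratio of pore formers to guards was 0.556 ± 0.0467 in shHMGA1 and 0.536 ± 0.0557 in shNC, with overlapping libraries, since both sums were lower. BAX over BCL2L1 also overlapped, at 0.818, 0.781 and 0.928 in shHMGA1 against 0.732, 0.682 and 0.831 in shNC. BAD over BCL2L1 did not overlap, at 0.571 ± 0.035 in shHMGA1 and 0.308 ± 0.0138 in shNC. This follows from the values above, since BAD was higher and BCL2L1 lower in every shHMGA1 library. These sums and ratios are descriptions in FPKM without a test, and they too rest on the lengths used. BCL2L1 is the largest term of the guard sum and BAX that of the pore formers.

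**Figure D3:**
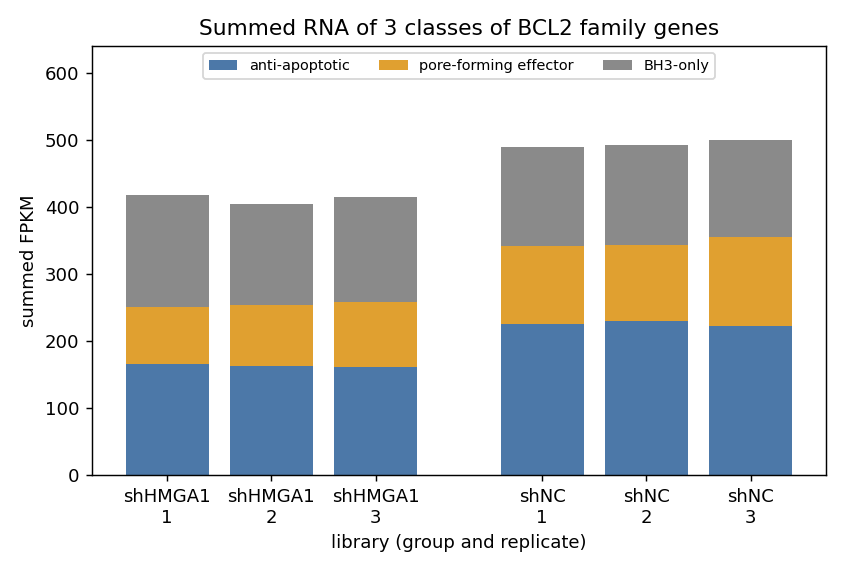
Summed FPKM of the guards (BCL2, BCL2L1, MCL1), the pore formers (BAX, BAK1) and the 5 BH3-only genes, stacked for each library. The 10 genes total 417, 406 and 414 FPKM in shHMGA1 and 489, 491 and 500 FPKM in shNC, with shorter guard and pore former segments in all 3 shHMGA1 libraries.

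The authors' deposited table holds their own comparison of the same libraries. It gave all 10 genes the same sign as FPKM did. Of the 10 genes, 5 had an adjusted p under 0.05 in the authors' deposited table, 3 lower and 2 higher, where 34.2% of 16509 genes with a value did. BCL2L1 had a log2 fold change of -0.70 (adjusted p = 2.45e-36) in the authors' deposited table, BAX one of -0.40 (2.38e-05) and BAD one of 0.26 (0.0111). The authors' deposited table also called MCL1 (-0.19, adjusted p = 0.00311) and BID (0.31, adjusted p = 0.000711), both of which missed the threshold by FPKM. Its group level for BCL2 was 173 in shHMGA1 and 181 in shNC, the lowest of the 10.

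A broader BCL2 list held 19 other homologues, BH3-only genes and genes named for an association with BCL2. Of these 14 were tested, and 4 rose, 3 fell and 7 did not pass (median log2 fold change 0.05). This is 50% called, where 28.4% of all genes were, 16.1% higher and 12.3% lower. Not all of the list are homologues or BH3-only genes. BCLAF1, named after its values were seen, is neither and was among those that rose (0.30, adjusted p = 0.0353). With 1 library left out, BCLAF1 was called only without shNC replicate 1 (adjusted p of up to 0.108 in the others). The mitophagy receptors BNIP3 and BNIP3L and the BAX activator MOAP1 fell. BNIP3 had 24.8 ± 3.78 FPKM in shHMGA1 and 36.1 ± 1.18 FPKM in shNC (log2 fold change -0.53, adjusted p = 0.0106), and MOAP1 11.3 ± 1.25 FPKM in shHMGA1 and 15 ± 0.796 FPKM in shNC (-0.39). BNIP3L had 32 ± 5.45 FPKM in shHMGA1 and 41.4 ± 2.44 FPKM in shNC (-0.37, adjusted p = 0.0472). BCL2L12, a family member whose part in apoptosis is less settled, rose, at 65 ± 2.69 FPKM in shHMGA1 and 51.3 ± 1.53 FPKM in shNC (0.33, adjusted p = 0.00476). BBC3, which encodes PUMA and was named after its values were seen, had 16.7 FPKM in shHMGA1 and 16.1 FPKM in shNC (0.04, adjusted p = 0.779). The 4 that rose were 1 without shHMGA1 replicate 2 or 3 and 2 without any other library, and the 3 that fell were 1 without shHMGA1 replicate 3 or shNC replicate 2. BNIP3L was called only without shHMGA1 replicate 1 (adjusted p of up to 0.141 in the others), and MOAP1 was lost without shHMGA1 replicate 3 or shNC replicate 2 (up to 0.0639).

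Of 18 tested genes of the list for the outer mitochondrial membrane and cytochrome c release, 6 rose, 0 fell and 12 did not pass, with a median of 0.12. The list also holds proteins that sit inside mitochondria. The 33.3% called were near the share of all genes, of which 28.4% were called, 16.1% higher and 12.3% lower. MFN2, which fuses mitochondria, had 46.5 ± 1.67 FPKM in shHMGA1 and 36.7 ± 1.79 FPKM in shNC (log2 fold change 0.34, adjusted p = 0.00625). ENDOG, a mitochondrial nuclease (0.41), AIFM1, a flavoprotein that can pass to the nucleus (0.23), and CHCHD10, a protein of the intermembrane space (0.30), also rose. The 6 were 2 without shHMGA1 replicate 3 or shNC replicate 1 and 3 without shHMGA1 replicate 2 or shNC replicate 2 or 3. ENDOG was lost without shHMGA1 replicate 2 or 3 or shNC replicate 1 or 3 (adjusted p of up to 0.0887), AIFM1 without shHMGA1 replicate 3 or shNC replicate 1 (up to 0.0601), and CHCHD10 without shHMGA1 replicate 2 or 3 or shNC replicate 2 or 3 (up to 0.107).

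Among 18 tested genes of the apoptosome, caspases and inhibitors of apoptosis, 2 rose, 2 fell and 14 did not pass, with a median of -0.04. The list is not limited to steps downstream of cytochrome c. The 22.2% called were near the 28.4% of all genes. BIRC2, which encodes the ubiquitin ligase cIAP1, had 19.8 ± 0.276 FPKM in shHMGA1 and 26.4 ± 0.97 FPKM in shNC (log2 fold change -0.40, adjusted p = 0.00282). Survivin (BIRC5), which is also a mitotic protein, rose to 143 ± 8.09 FPKM in shHMGA1, against 120 ± 4.96 FPKM in shNC (0.25), and the caspase substrate PARP1 rose by 0.29. BIRC5 was lost without shHMGA1 replicate 3 or shNC replicate 1 or 2 (adjusted p of up to 0.071), and without each of these the 2 that rose were 1.

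Of 25 genes for the turnover, phosphorylation and binding of BCL2 family proteins, 2 rose, 2 fell and 21 did not pass, with a median of -0.04. This is 16% called, against 28.4% of all genes. The cochaperone BAG1, a binder of BCL2, had 72.4 ± 6.46 FPKM in shHMGA1 and 54.1 ± 4.84 FPKM in shNC (log2 fold change 0.41). YWHAZ, a 14-3-3 protein of the kind that holds phosphorylated BAD, had 931 ± 11 FPKM in shHMGA1 and 1102 ± 37.1 FPKM in shNC (-0.24, adjusted p = 0.00794). PIM1, a kinase that can phosphorylate BAD, fell (-0.43). PIM1 was called only without shHMGA1 replicate 1 when libraries were left out (adjusted p of up to 0.118), and BAG1 was lost without shHMGA1 replicate 3 or shNC replicate 1 (up to 0.0554). The 2 that rose were 1 without shHMGA1 replicate 3 or shNC replicate 1, and the 2 that fell were 1 without shHMGA1 replicate 2 or 3 or shNC replicate 1 or 2 and 5 without shHMGA1 replicate 1.

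Of 21 tested transcription factors and cofactors known to act on BCL2 family genes, 6 rose, 5 fell and 10 did not pass, with a median of -0.03. This is 52.4% called, against 28.4% of all genes. STAT3, an activator of BCL2L1 and MCL1 in many cells, had 35.51, 32.62 and 33.81 FPKM in shHMGA1, against 46.11, 47.63 and 47.87 FPKM in shNC (log2 fold change -0.46, adjusted p = 0.00169). TP73, an activator of BAX and PUMA, had 8.31 ± 0.352 FPKM in shHMGA1 and 5.7 ± 0.144 FPKM in shNC (0.47, adjusted p = 0.00332). E2F1, of the cell cycle, rose by 0.41. KLF6, a zinc finger factor, had the lowest log2 fold change of this list, -1.01, with 37.85, 17.92 and 27.51 FPKM in shHMGA1 against 55.78, 56.45 and 51.35 FPKM in shNC. KLF6 was lost without shHMGA1 replicate 3 or shNC replicate 1 or 2 (adjusted p of up to 0.0608). The 6 that rose were 4 whichever library was left out. The 5 that fell were 3 without shHMGA1 replicate 3, 2 without shNC replicate 1 or 2 and 7 without shHMGA1 replicate 1.

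**Figure D4:**
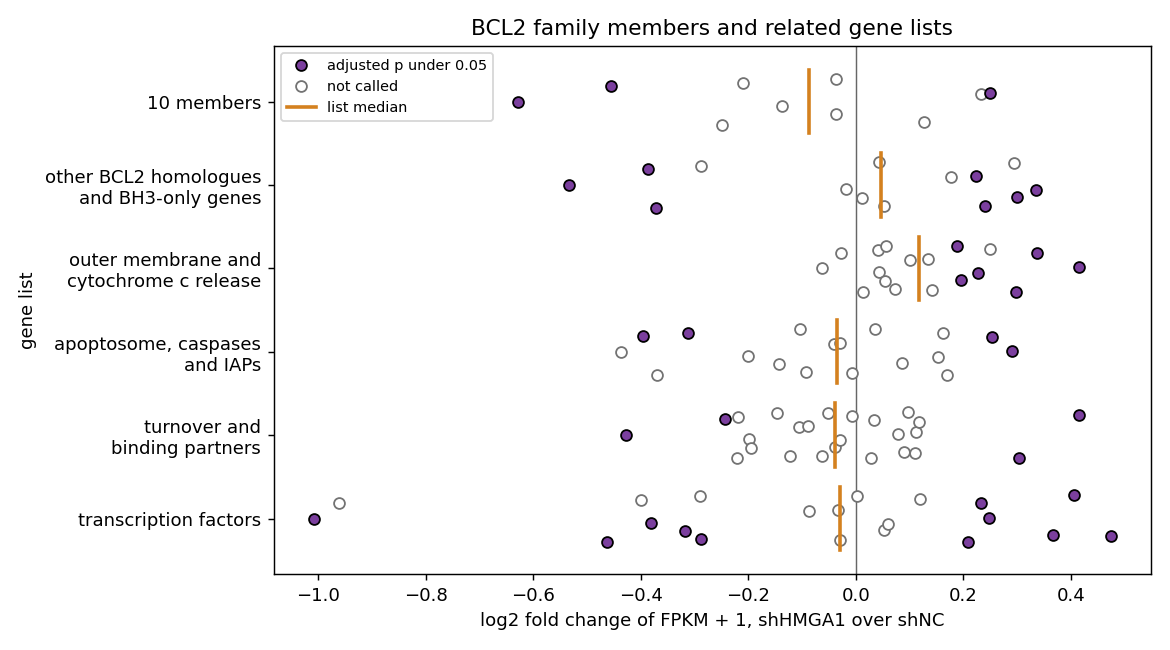
Log2 fold change of FPKM + 1, shHMGA1 over shNC, for the 10 genes and for the tested genes of 5 related lists, each point 1 gene, filled where the adjusted p is under 0.05; orange lines are list medians, -0.09 for the 10 genes and -0.04 to 0.12 for the lists. Called genes of the list for the outer membrane and cytochrome c release all lie above 0, and those of the other lists lie on both sides.

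BCL2L1 had the largest absolute moderated t of the 10. Across the 6 libraries and the 105 other genes of the family and the 5 lists, its log2(FPKM + 1) was most like that of BIRC2 (Pearson r = 0.976), YWHAZ (0.972) and STAT3 (0.961). These r are descriptions over 6 libraries of 2 groups, and each of the 3 genes was lower in every shHMGA1 library. The r values hold that shared difference between the groups.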

How the data were processed

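Poly-A RNA of 6 libraries was sequenced on an MGI instrument, per the labels' protocols. Groups and replicate numbers come from the titles. The build is hg38, per the submitters' processing notes. The sources used here name no aligner, counting method or annotation. Per the file headers, the deposited table holds FPKM per library, made by the authors and rounded. Beside them stand the authors' mean level of each group (a signal scaled like normalized counts) and their log2 fold change with its p-value, raw and adjusted.

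FPKM are not counts, so log2(FPKM + 1) was tested with limma 3.58.1 in R 4.3.3 (two-sided, eBayes with trend) where the mean of the 6 libraries reached 1 FPKM. Adjusted p (Benjamini-Hochberg) covers all 14304 such genes, and "called", "rose" and "fell" mean under 0.05. This scale understates changes of low genes. Exact permutation tests used scipy 1.17.1. In simulated data of the shHMGA1 and shNC comparison (14145 genes), the step recovered 94% of genes changed by a log2 fold change of 1 and 65% at 0.5. The changed genes, 100 of each size, were drawn from genes well above the minimum of 1 FPKM. These rates thus do not cover low genes such as BCL2, or data in which 28.4% of genes are called. Read totals are not used here; relative depth came from the most frequent FPKM ratio among genes at about 1 read.

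Members and lists were chosen with earlier results of these data known. Named genes were HMGA1, all members, up to 4 called genes per list with the largest absolute log2 fold change, and the 3 genes most like the member with the largest t. The text marks any other gene as named after its values were seen. Some genes that the rule names are not reported here. Promoters are RefSeq's, and exon overlaps come from GENCODE 29. Alternatives were pseudocounts, filters, scalings, the replicate block, eBayes settings and leaving out each library.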

Additional observations from a re-analysis of the deposited data

How the results depend on the processing

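BCL2L1 (-0.67 to -0.60), BAX (-0.51 to -0.38), BAD (0.19 to 0.28) and HMGA1 (-0.75 to -0.61) kept their direction and call in all 17 alternatives. MCL1 passed with a mean of at least 5 FPKM (-0.21, adjusted p = 0.041), robust eBayes (-0.21, 0.0466), median-of-ratios scaling (-0.22, 0.0458) and quantile normalization (-0.27, 0.0302). With 1 library left out it ranged over -0.27 to -0.15. BIK passed when scaled without mitochondrially encoded genes (-0.27, adjusted p = 0.0475). BID ranged over 0.17 to 0.31 with 1 library left out. The sign turned for BCL2 under quantile normalization (0.00045) and, with 1 library left out, for BCL2 (-0.0811 to 0.0478), BAK1 (-0.0967 to 0.0438) and PMAIP1 (-0.25 to 0.0331). None of the 3 was called in any alternative. BCL2 gave no value with a mean of at least 5 FPKM or in 2 of the fits with 1 library left out, since its mean was then below the minimum.

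The replicate numbers did not pair the libraries: deviations of same-numbered libraries correlated at 0.0202, -0.0364 and 0.041. With the number as a replicate block BID passed (0.23, adjusted p = 0.0342), so that 2 members were called higher, and no other member's call changed.

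With 1 library left out, 1 to 2 members were higher and 2 to 3 lower, and over all genes 1138 to 2626 were higher and 952 to 1973 lower. With no filter 1478 genes were higher. In the lists, the ranges with 1 library left out were 1 to 2 higher and 1 to 3 lower for the broader BCL2 list. They were 2 to 7 higher for the outer membrane and cytochrome c release, and 1 to 2 higher for the apoptosome. For turnover they were 1 to 2 higher and 1 to 5 lower. For transcription factors 4 were higher in every such fit and 2 to 7 were lower. The broader BCL2 list had 2 higher with no filter, no trend or scaling without mitochondrially encoded genes. Transcription factors had 3 lower with no filter. Turnover genes had 1 lower with no filter or no trend, 4 with a mean of at least 5 FPKM and 5 with quantile normalization. The cause of these shifts was not tested. A fit with 1 library left out rests on 2 libraries in a group, and BCL2, with a mean of 1 FPKM, lies at the minimum for testing.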
